A study of Mus musculus with 6 samples.

Results

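Cells that copy their DNA raise a shared set of transcripts, and 40 such genes were followed here in cultured muscle-derived stem/progenitor cells of the mouse. The members are a fixed list of S-phase genes of the kind used to score the cell cycle, and the rule uses no measured value. The lists were, however, chosen with earlier results of these data known. All 40 had 1 identifier each among the 21485 genes shared by the 6 count matrices, and all 40 passed the filter on low counts in every comparison. Muscle-derived stem/progenitor cells are the slowly adhering cells of dissociated skeletal muscle, enriched by serial transfer of the cells that do not attach to collagen-coated flasks. The 6 samples were 3 populations from young mice (labelled Y1-1, PtC5 and FT-QU, called young 1, 2 and 3) and 3 from old mice (labelled O1-1, NA-f2 and NA-f3, called old 1, 2 and 3). All 6 were expanded in the same serum-rich proliferation medium and their cells sequenced in droplets with a 3′ chemistry, which counts the ends of polyadenylated RNAs. The labels state that each is a biological replicate, but give no age, sex, strain or genotype, and do not say whether a population came from 1 animal or several. Values are given below in the order young 1, 2, 3 and old 1, 2, 3.

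Before a chromosome is copied, the MCM helicase is loaded onto origins, and cyclin E with CDK2 then helps to fire them. The helicase, now joined by Cdc45 and the GINS complex, unwinds the DNA, while primase, polymerases and the sliding clamp Pcna copy both strands. Ribonucleotide reductase and thymidylate synthase supply the nucleotides, repair factors deal with damaged or stalled forks, and histone chaperones repackage the new DNA. Many of these genes are transcribed under E2F factors at the passage from G1 into S phase, and proliferating myogenic cells express them until they leave the cycle to differentiate.

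Promoters were available in RefSeq (GRCm38.p6) for 30 of the 40 genes, as windows from 250 bases before to 50 bases after the start of the gene. Matches were sought on both strands to TTTCGCGC, TTTGGCGC and GGCGGGAA (E2F), CCAAT (bound by NF-Y) and TTTGAA (the CHR element). The first pair of E2F words can overlap each other on opposite strands. An E2F word was found in 12 of the 30 genes, namely Mcm5, Mcm6, Dtl, Casp8ap2, Clspn, Rad51ap1, Pold3, Rrm1, Prim1, Ubr7, Uhrf1 and Pola1. In all 32851 promoters of the same length, 2.96% held such a word. CCAAT was found in 21 of the 30 genes against 37.4% of all promoters, and an E2F word with CCAAT in 11 of the 30 genes against 1.17%. TTTGAA was found in 6 of the 30 genes against 17.9% of all promoters. The median GC content was 59.0% in the 33 windows of the members and 52.7% in all windows. A match describes the letters and is not a measured binding site. The 6 windows below include the pair of ribonucleotide reductase genes, whose levels differed between populations in different ways. Mcm6 is a helicase gene with 3 E2F matches. Cdc45, Ung and Cdca7 each lay, in a single population, 2-fold or more below a level computed further on. Capitals mark matches to the E2F words and to CCAAT, which reads ATTGG when it lies on the other strand.
Rrm1 (chr7:102441445-102441744, plus strand): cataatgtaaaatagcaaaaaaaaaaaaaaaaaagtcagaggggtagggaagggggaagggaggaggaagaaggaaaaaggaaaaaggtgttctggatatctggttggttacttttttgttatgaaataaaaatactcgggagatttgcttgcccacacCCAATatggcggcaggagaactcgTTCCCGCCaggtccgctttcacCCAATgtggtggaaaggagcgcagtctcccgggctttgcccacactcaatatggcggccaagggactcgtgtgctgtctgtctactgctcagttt
Rrm2 (chr12:24708004-24708303, plus strand): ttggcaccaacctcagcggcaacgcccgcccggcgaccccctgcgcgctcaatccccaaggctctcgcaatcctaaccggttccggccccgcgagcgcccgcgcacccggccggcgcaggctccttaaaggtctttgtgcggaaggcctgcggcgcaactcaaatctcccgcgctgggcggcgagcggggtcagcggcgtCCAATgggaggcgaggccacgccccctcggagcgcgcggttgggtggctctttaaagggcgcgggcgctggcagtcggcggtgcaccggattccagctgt
Mcm6 (chr1:128359656-128359955, minus strand): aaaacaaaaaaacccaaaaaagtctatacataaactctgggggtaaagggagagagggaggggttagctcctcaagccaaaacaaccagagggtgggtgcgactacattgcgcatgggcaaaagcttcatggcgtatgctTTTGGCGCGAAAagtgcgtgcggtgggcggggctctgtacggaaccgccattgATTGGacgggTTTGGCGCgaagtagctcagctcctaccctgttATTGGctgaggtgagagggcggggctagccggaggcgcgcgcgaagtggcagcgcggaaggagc
Cdc45 (chr16:18811923-18812222, minus strand): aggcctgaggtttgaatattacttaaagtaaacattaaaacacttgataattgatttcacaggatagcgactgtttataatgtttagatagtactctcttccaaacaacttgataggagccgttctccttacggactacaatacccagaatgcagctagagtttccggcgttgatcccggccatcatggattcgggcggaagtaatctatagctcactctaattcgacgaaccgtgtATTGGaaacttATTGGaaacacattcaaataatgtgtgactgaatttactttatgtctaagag
Ung (chr5:114130185-114130484, plus strand): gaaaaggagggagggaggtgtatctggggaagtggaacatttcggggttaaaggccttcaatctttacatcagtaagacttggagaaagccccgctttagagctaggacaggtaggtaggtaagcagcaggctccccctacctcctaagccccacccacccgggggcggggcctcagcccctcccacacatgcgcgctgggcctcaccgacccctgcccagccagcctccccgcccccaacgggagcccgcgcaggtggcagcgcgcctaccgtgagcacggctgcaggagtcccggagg
Cdca7 (chr2:72475969-72476268, plus strand): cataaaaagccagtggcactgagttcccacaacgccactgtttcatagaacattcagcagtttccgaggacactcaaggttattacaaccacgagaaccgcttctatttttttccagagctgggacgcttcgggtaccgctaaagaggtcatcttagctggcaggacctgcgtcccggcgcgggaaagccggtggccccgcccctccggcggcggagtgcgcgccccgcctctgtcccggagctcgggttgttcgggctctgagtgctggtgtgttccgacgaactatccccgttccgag
Rrm1 carried 1 E2F word and 2 CCAAT words, whereas Rrm2 carried 1 CCAAT word and none of the E2F words. Cdc45 held 2 CCAAT words, and the windows of Ung and Cdca7 held none of the E2F words sought and no CCAAT. Other forms of the E2F site were not sought, so the counts of E2F words hold for the listed words only.

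The deposited matrices held 62849 barcodes, of which 61673 were kept as cells, between 8674 and 12541 per population. Median depth was 13001 to 19951 unique molecular identifiers (UMIs) per kept cell. Pairs of populations shared between 23 and 35 cell barcodes. Young 1 and old 1 were counted on a shorter gene list, with an earlier version of the counting software, than the other 4. Of the markers looked up, 8 of 8 myogenic genes and 10 of 10 genes of differentiated myocytes reached 1 CPM (UMIs of a gene, scaled so that the shared genes have the same total in every population) in at least 1 population. Pax7, the factor that marks satellite cells, was at 0.0265 CPM in young 3, and Myf5, a myogenic commitment factor, was at 0.00748 CPM in young 1. Among genes of other cell types, 1 of 5 endothelial, 1 of 6 immune and 1 of 4 Schwann cell genes reached 1 CPM, and the defining markers Ptprc, Cdh5 and Sox10 stayed near or at 0. Of the smooth muscle and pericyte genes 4 of 5 did, mainly Cspg4 and Rgs5, while the defining gene Myh11 was at 1.11 CPM or less. This list summed to 18.98, 19.7 and 17.5 CPM in young and 10.6, 1.57 and 10.0 CPM in old populations, without overlap, and its part in the levels of the members was not tested. Of the fibro-adipogenic genes, 6 of 7 reached 1 CPM, with Gsn at 149 to 317 CPM and Col3a1, Ly6a and Smoc2 at up to 132, 126 and 103 CPM. Pdgfra and Dcn stayed at 1.97 CPM or less, and Lum was at 0 in 5 populations. This list summed to 278, 437, 303 and 225, 475, 279 CPM, against 192, 1169, 251 and 199, 849, 1593 CPM for the myogenic genes. It was the higher of both in young 1, young 3 and old 1, and its part in the levels of the members was not tested.

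The summed level of the 40 genes varied by a factor of 2.01 between populations and did not separate young from old. It was 1307.5, 1862 and 2629 CPM in young and 2406, 1358 and 1905 CPM in old populations. Young 3 and old 1 were high, young 1 and old 2 were low, and the groups overlapped across most of their range. The means were 1933 ± 664 CPM in young and 1890 ± 524 CPM in old populations (SD, n = 3 each). Their difference of -43.1 CPM became 305 CPM without young 3, 223 CPM without old 2 and -614 CPM on the 4 populations of the longer gene list. Scaled by edgeR's TMM factors, the sums were 1543, 1869, 2428 and 2171, 1300, 2018 CPM, with a difference of -117 CPM. A second list of 37 replication genes, none of them among the 40, was ordered almost alike, with sums of 1386, 2083, 2897 and 2317, 1270, 2200 CPM. The 20 genes of G2 and mitosis summed to 1585, 2280, 2978 and 2635, 1483, 2783 CPM.

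Single members mostly had their extremes in the populations where the sum was high or low. Young 3 held the highest level of 21 members and old 1 of 16, old 3 of 2 and young 2 of 1. The lowest level was in old 2 for 24 members and in young 1 for 16. These counts hold for CPM without edgeR's TMM factors. With them the lowest level of some members moved, as for Rrm1 from young 1 (72.9 CPM) to old 2 (71.8 CPM). The highest population exceeded the lowest by a median factor of 2.74 over the 40 genes, and by more than 2 in 36 of them. The 4 steadiest were Ubr7 (1.58), Pcna (1.77), Rfc2 (1.81) and Slbp (1.95). The widest spans belonged to the cyclin gene Ccne2 (6.27), the uracil glycosylase gene Ung (5.54), the exonuclease gene Exo1 (4.96), the chromatin gene Cdca7 (4.57) and the helicase gene Cdc45 (4.37).

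**Figure D1:**
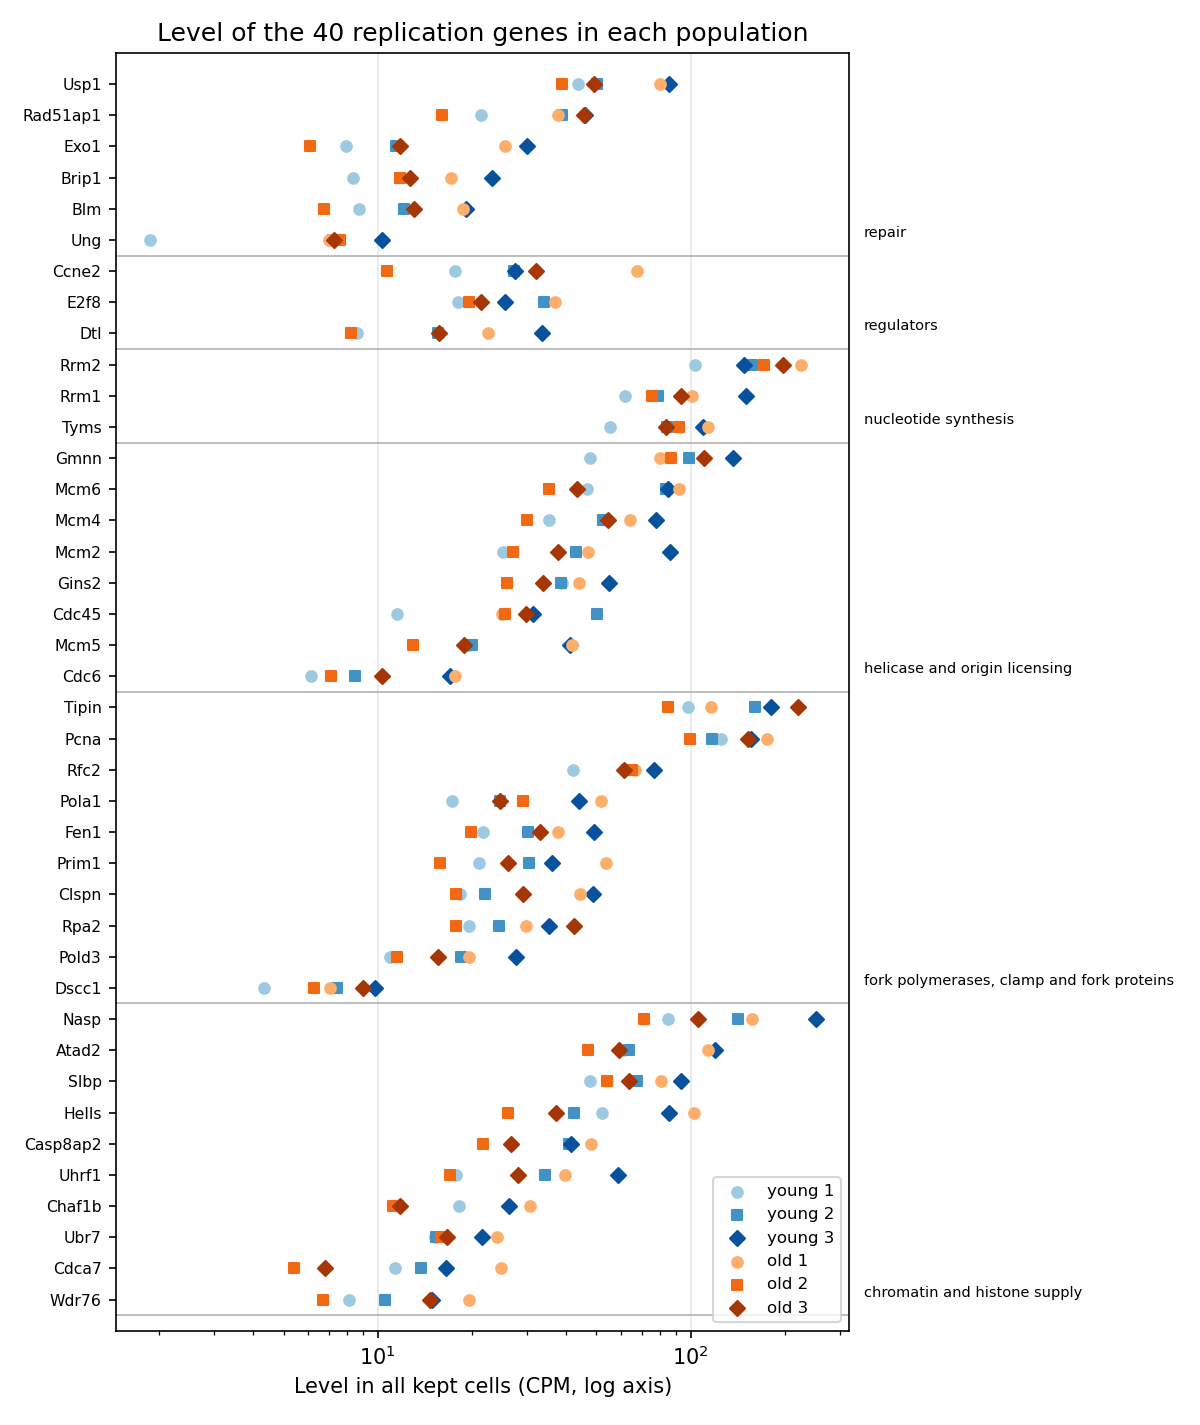
Level of each of the 40 replication genes (vertical axis, grouped by role) in all kept cells of each population, in CPM on a log axis; each point is 1 population, blue for young and orange for old. Young 3 or old 1 lies furthest right for 37 of the 40 genes, and old 2 or young 1 furthest left for all 40.

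To set the level of the members against the share of cells with replication transcripts, cells were sorted with the 37 other genes. Each cell was first thinned at random to 5000 UMIs, which left out 149 to 373 shallower cells per population. A cell with 10 or more UMIs of the 37 genes was called replication-positive, and the others are called the remaining cells. No member took part in this choice. The limit cuts a continuous range, with 5.78% to 11.7% of the cells of a population at 9 or 10 UMIs. Nor is it specific to S phase, since 86.0% to 88.4% of replication-positive cells also held 5 or more UMIs of the 20 genes of G2 and mitosis. In the remaining cells that share was 53.0% in young 3 and 47.5% in old 1, against 18.8% to 33.0% in the other 4, so the remaining cells of that pair held more cycling transcripts.

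The replication-positive share was 27.3%, 43.4% and 71.0% in young and 57.2%, 22.3% and 46.7% in old populations. The 95% Wilson interval was 21.4% to 23.2% for the lowest share and 70.1% to 71.8% for the highest, counting error only. The shares differed by a factor of 3.18 and stood in nearly the same order as the summed level of the members. The means were 47.2% ± 22.1 in young and 42.1% ± 17.9 in old populations (SD, n = 3 each), a difference of -5.17 percentage points. A two-sided exact permutation test gave p = 0.8, where 3 against 3 samples cannot go below 0.1. Without young 3 the difference became 6.70 points, without old 2 it became 4.70, and on the longer gene list it was -22.7. Replication-positive cells were the deeper ones before thinning in all 6 populations, with medians of 14378 to 22412 UMIs against 11628 to 19257 in the remaining cells.

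Within replication-positive cells the summed level of the 40 genes was 2654, 2837 and 3146 CPM in young and 3127, 3103 and 3033 CPM in old populations, a span of 1.19-fold. A fixed limit on genes that move with the members in part fixes how alike these levels are. The span was 1.37-fold at a limit of 5 UMIs and 1.17-fold at 15, with shares that spanned 2.20-fold and 3.91-fold. At the limit of 10, old 2, where such cells were the smallest share, was at the level of old 1 and young 3, where they were the largest. In the remaining cells the sum was 778, 869, 1345 and 1382, 771, 820 CPM, a span of 1.79-fold, with young 3 and old 1 again high. The ratio of both kinds of cell lay between 2.26 in old 1 and 4.02 in old 2. That the members were higher in replication-positive cells follows in part from how the cells were sorted and was not tested. A replication-positive cell held UMIs of a median of 10 or 11 of the 40 genes, and a remaining cell of 3 to 5.

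**Figure D2:**
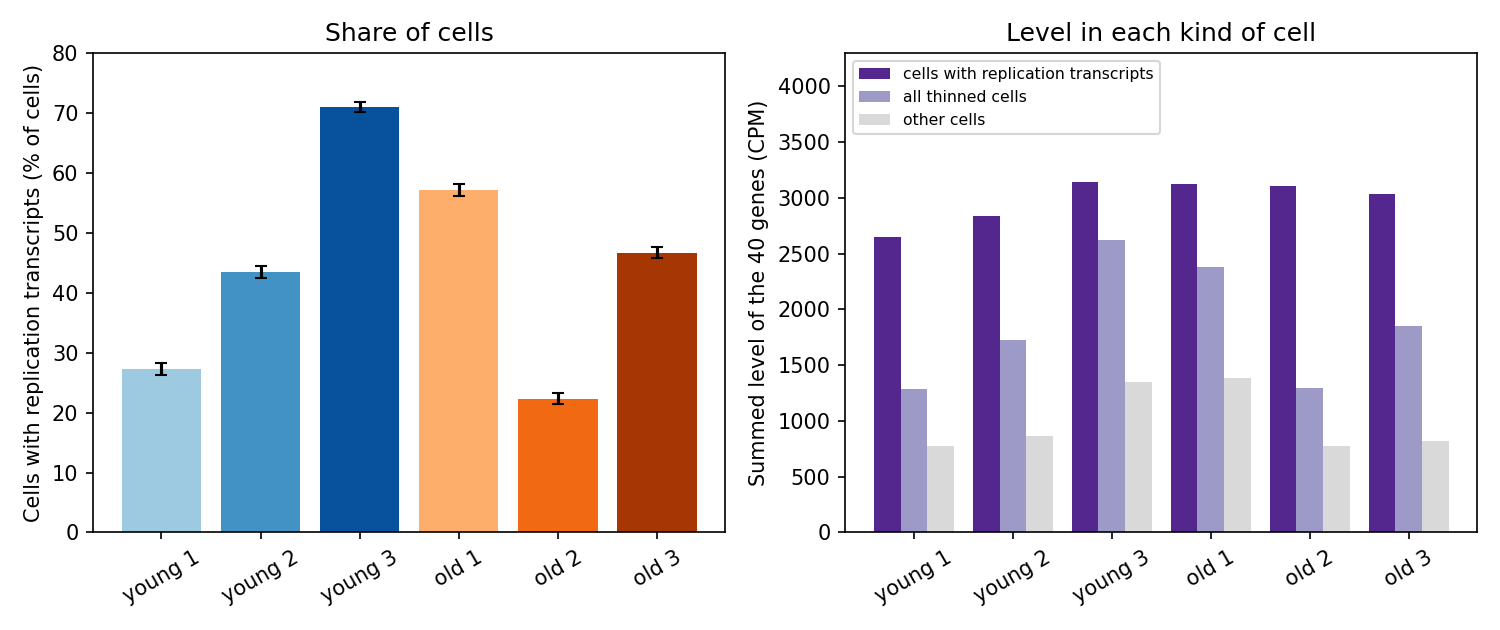
Left, replication-positive cells as a percentage of thinned cells in each population, with 95% Wilson intervals; right, summed level of the 40 genes in CPM in replication-positive cells, all thinned cells and the remaining cells. The share runs from 22.3% to 71.0%, while the dark bars stay between 2654 and 3146 CPM.

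A level was then computed for each population from its share alone, using the mean level of each kind of cell over the 6 populations. These computed sums spanned 1.67-fold, and sums computed from each population's own levels at the mean share spanned 1.34-fold, against 2.03-fold in the thinned data. In young 3 and old 1 the observed level was above the computed one for 27 and 28 members, with medians of 0.12 and 0.19 on the log2 scale. In young 1, young 2, old 2 and old 3 it was above for 5, 8, 10 and 13 members, with medians of -0.25, -0.17, -0.30 and -0.14. The pair with the largest shares thus lay further up, and the other 4 further down, than the share gave. These levels were not scaled by edgeR's TMM factors, which were 0.848, 0.997, 1.08 and 1.11, 1.04, 0.944. Shifts of this size can come with such scaling, and its part in them was not tested. Of the 240 values of a member in a population, 200 lay within 0.5 of the computed level on the log2 scale.

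Cells with more UMIs of the 37 other genes also held more UMIs of the members. At 0 to 2 UMIs of the 37 genes, a cell held on average 2.13 to 3.48 UMIs of the members. At 10 to 14 it held 9.79 to 13.2, and at 20 to 24 it held 18.0 to 20.3. In cells below the limit of 10, old 1 and young 3 held the most UMIs of the members.

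**Figure D3:**
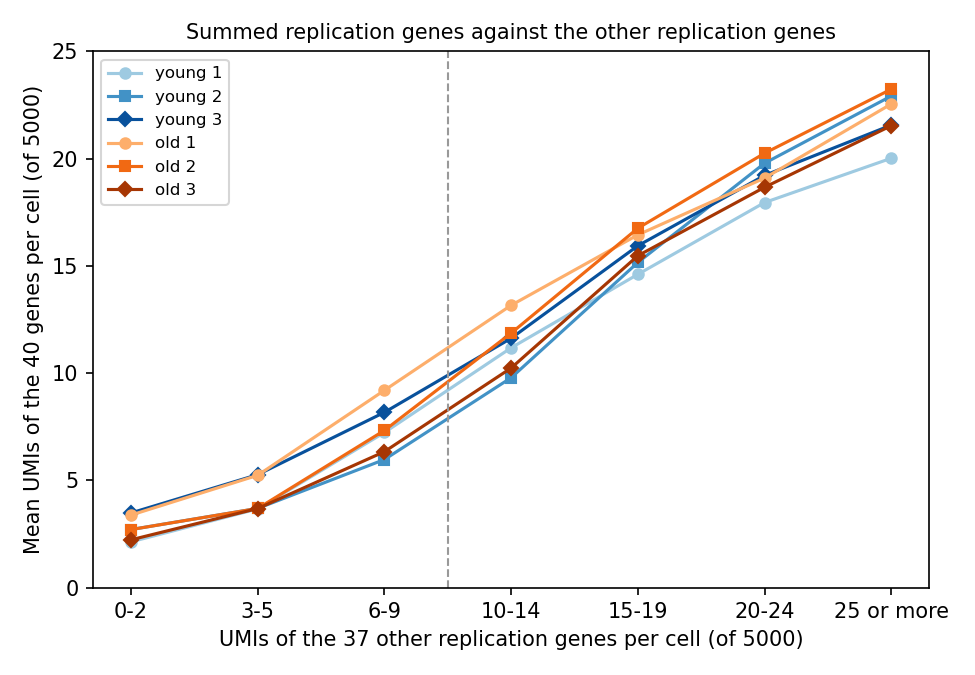
Mean UMIs of the 40 genes per cell (vertical axis) against the UMIs of the 37 other replication genes in the cell (horizontal axis, in bins), both per 5000 UMIs, with 1 line per population; the dashed line marks the limit of 10. All lines climb, from 2.13 to 3.48 UMIs in the first bin to 18.0 to 20.3 UMIs in the bin of 20 to 24.

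Cells with transcripts of differentiation were set beside these, though they proved to be no clean control for replication transcripts. Cells with 10 or more UMIs of 10 myocyte genes made up 3.07%, 13.5%, 1.01% and 0.384%, 7.66%, 39.9% of the thinned cells. The members summed to 527, 915, 1080 and 889, 608, 1545 CPM in them, below the remaining cells except in young 2 and, by far, old 3. In old 3, 35.3% of these cells were replication-positive themselves, against 1.54% in young 1. Without the myocyte cells the replication-positive share was 28.1%, 48.1%, 71.5% and 57.3%, 23.95%, 54.3%. The summed level of the myocyte genes was 686, 2587, 153 and 110, 1179, 10087 CPM, highest in old 3, and its part in the levels of the members was not tested beyond this.

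The members differed in how far replication-positive cells stood above the remaining ones. The mean ratio over the 6 populations was highest for Exo1 (9.76), the cohesion factor gene Dscc1 (9.01), the checkpoint adaptor gene Clspn (8.39), the licensing factor gene Cdc6 (8.27) and Ccne2 (8.08). It was lowest for Ubr7 (1.93), the atypical E2F gene E2f8 (2.09), the histone transcript processing gene Casp8ap2 (2.17) and the clamp loader gene Rfc2 (2.29). The highest ratios rest on low levels in the remaining cells, on average 4.06 CPM for Exo1 and 1.77 CPM for Dscc1. Over the populations they ran from 4.21 to 21.5 for Exo1 and from 4.65 to 15.7 for Dscc1, so the order at the top is loose. Every member was higher in replication-positive than in remaining cells of every population, with a lowest single ratio of 1.42. Over the populations, the level in thinned replication-positive cells spanned a median of 1.70-fold, and more than 2-fold for 11 members. In all kept cells, without thinning, it spanned more than 2-fold for 36. The sorting by a fixed limit in part fixes the narrower span, so these counts were not compared further.

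Old and young populations were compared gene by gene with edgeR's quasi-likelihood test on counts summed per population, adjusted over all genes by the Benjamini-Hochberg method at 0.05. In all kept cells 0 of the 40 members were called, where 1 of 14512 genes, or 0.00689%, was called in all, and 512 genes had an unadjusted p under 0.05, none of them a member. DESeq2 called 219 genes and 0 members. The log2 fold change of old over young was above 0 for 13 members and below 0 for 27, with a median of -0.12 against -0.01 for all genes tested. It ran from -0.60 for Cdca7 to 0.48 for Rrm2. The value of Cdca7 was -1.24 without young 1 or without old 1 and -0.24 without old 2. With young 1 or old 1 left out, the other was alone on its gene list. Such an estimate thus rests on the 4 populations of the longer list and is not a separate alternative. In replication-positive cells 0 members were called, against 0.00729% of 13726 genes, with 18 above and 22 below 0 and a median of -0.04. In the remaining cells 0 were called, against 0.00725% of 13799 genes, with 10 above and 30 below 0 and a median of -0.16. An unadjusted p under 0.05 was found for 509 genes and 0 members in replication-positive cells, and for 445 genes and 1 member in the remaining cells. DESeq2 called 177 and 168 genes there, and 0 members in either. The 37 other replication genes gave 0 calls in each comparison, with medians of -0.25, -0.06 and -0.25. In all kept cells the median of the members turned to 0.11 without young 3 and to 0.12 without old 2. On the 4 populations of the longer gene list it was -0.49, with 38 of 40 members below 0.

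Without a test, a count of members whose young and old values did not overlap gave 1 of 40 in all kept cells, where 5.93% of all genes tested did so. It gave 3 of 40 in replication-positive cells against 6.06%, and 1 of 40 in the remaining cells against 5.51%. These shares of the members, at 1 to 3 genes, are near the background.

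Of the 3 nucleotide synthesis genes, 2 had a log2 fold change above 0 and 1 below, and the group held the member with the lowest p. Rrm2 (ENSMUSG00000020649; chromosome 12, 24708241 to 24714146, GRCm38) encodes the small subunit of ribonucleotide reductase, the enzyme that makes deoxyribonucleotides. Its level in all kept cells was 103, 157 and 148 CPM in young and 226, 172 and 197 CPM in old populations. Each old population was above each young one. The log2 fold change was 0.48 (SE 0.23) with an adjusted p of 1.00 by edgeR's quasi-likelihood test, so the difference did not pass. Leaving out any single population kept it between 0.34 and 0.61, and could hardly turn its sign, since the groups did not overlap.

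The order of the groups was alike in both kinds of cell. In replication-positive cells Rrm2 was at 204, 228, 172 and 281, 294, 286 CPM, or 201 ± 28.1 and 287 ± 6.61 CPM (SD, n = 3 each), with a log2 fold change of 0.43 (SE 0.22), which was 0.27 without young 3. In the remaining cells it was at 62.8, 88.4, 74.3 and 146, 131, 104 CPM, with a log2 fold change of 0.68 (SE 0.22) and an adjusted p of 0.999. At equal depth, 62.0%, 62.6% and 57.0% of young and 71.4%, 72.2% and 73.0% of old replication-positive cells had an Rrm2 UMI. In the remaining cells these shares were 22.8%, 32.3%, 25.9% and 43.8%, 43.6%, 36.3%. Myocyte cells, some of which were replication-positive themselves, showed 29.7%, 39.8%, 33.6% and 31.6%, 53.8%, 47.0%, at median depths of 10784 to 20662 UMIs before thinning. The remaining cells were below the myocyte cells in 5 of 6 populations, and replication-positive cells were above them in all 6. Free RNA was not measured, and its part in the Rrm2 level of the remaining cells was not tested.

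Rrm1 (chromosome 7, 102441695 to 102469771), which encodes the large subunit of the same enzyme, had another pattern. It was at 61.7, 78.5 and 150 CPM in young and 101, 75.003 and 93.0 CPM in old populations, highest in young 3 and with full overlap of the groups. Its log2 fold change was -0.13 (SE 0.32), and lay between -0.35 and 0.20 when a population was left out. The ratio of Rrm2 to Rrm1 counts was 1.67, 2.00, 0.986 in young and 2.24, 2.30, 2.12 in old populations, and in replication-positive cells 1.65, 2.01, 1.05 and 2.26, 1.92, 2.29. The ratio kept the groups apart in all kept cells, but old 2 lay below young 2 among replication-positive cells. Among the remaining cells it was 1.70, 1.97, 0.699 and 2.18, 2.68, 1.75, and old 3 lay below young 2. Tyms, which encodes thymidylate synthase, was at 111, 126, 122 and 139, 200, 128 CPM in replication-positive cells, with all old values above the young ones and a log2 fold change of 0.29 (SE 0.22). In all kept cells its values were 55.2, 83.9, 110 and 113, 92.0, 83.3 CPM, and the groups overlapped. The median over the genes of chromosome 12, which carries Rrm2, was shifted by less than 0.05 on the log2 scale in every population. Smaller stretches of it were not looked at, and their part in the Rrm2 level was not tested.

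**Figure D4:**
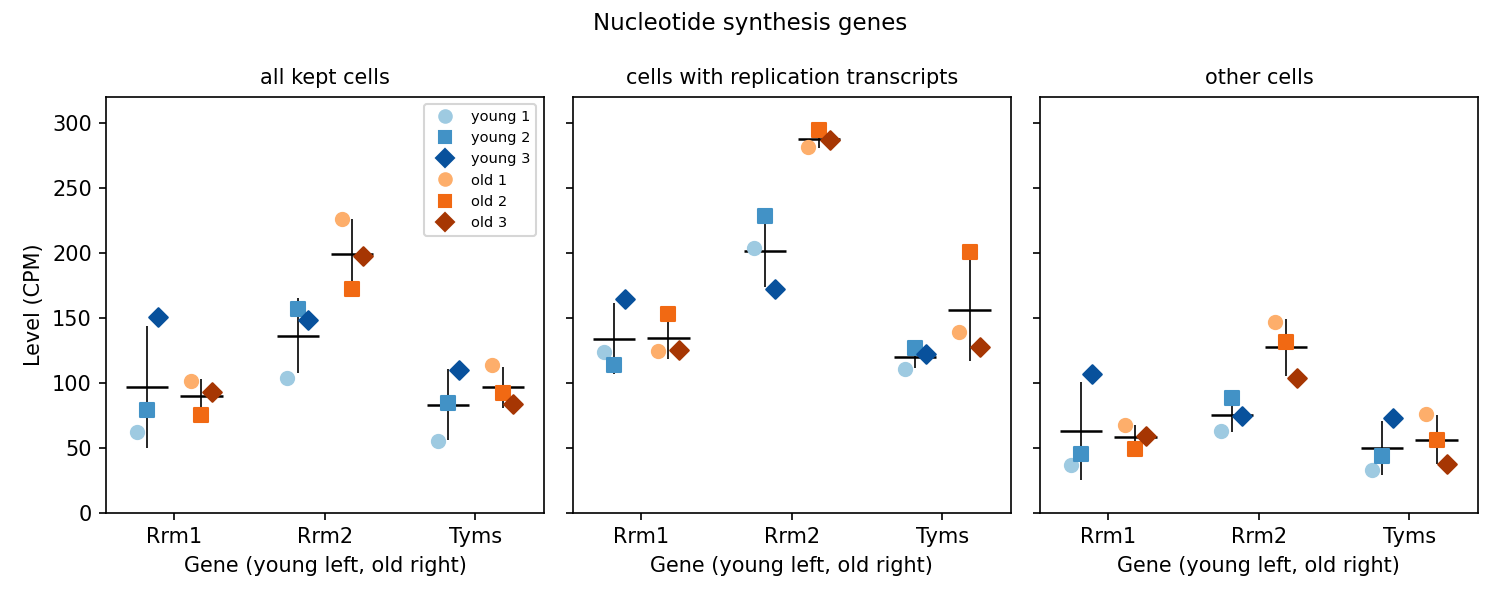
Levels of Rrm1, Rrm2 and Tyms in CPM (vertical axis) in all kept cells, replication-positive cells and the remaining cells; each point is 1 population, young left and old right, with the mean and SD of 3. Rrm2 is the gene whose young and old points stay apart in all 3 panels, from 172 to 228 CPM against 281 to 294 CPM in replication-positive cells.

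Of the 8 helicase and origin genes, 2 had a log2 fold change above 0 and 6 below, with a median of -0.27 and 0 called. Gmnn, which encodes the licensing inhibitor geminin, was at 47.6, 98.7, 137 and 79.7, 86.4, 111 CPM, with a log2 fold change of 0.0045 (SE 0.26). Mcm6 (chromosome 1, 128331590 to 128359664), a subunit of the MCM ring, was at 46.6, 83.2, 84.5 and 91.5, 35.3, 43.5 CPM, with a log2 fold change of -0.49 (SE 0.39). Old 2 and old 3 were the lowest and old 1 the highest, so the old group spread around the young one. The fold change of Mcm6 was -1.02 without young 1 or without old 1 and -0.19 without old 2. Gins2, which encodes a subunit of the GINS complex, was lower in each old than in each young population among replication-positive cells, at 72.4, 61.5, 63.5 and 54.4, 60.4, 52.1 CPM. Its log2 fold change there was -0.32 (SE 0.20), and it was not called.

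The 10 fork genes were split, with 5 above and 5 below 0 and a median of -0.01. Tipin, whose product protects the fork together with Timeless, was at 98.2, 161, 180 and 116, 84.4, 220 CPM. It was highest in old 3, where most members were at middle levels, and in replication-positive cells old 3 also led with 331 CPM against 146 to 248 CPM elsewhere. Pcna was at 125, 117, 156 and 176, 99.5, 152 CPM. Among replication-positive cells Pcna varied only from 180 to 241 CPM. The groups did not separate for either gene.

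Of the 10 chromatin and histone supply genes, 2 were above and 8 below 0, with a median of -0.31 and 0 called. Nasp, a histone chaperone gene, was at 84.4, 141, 251 and 158, 71.0, 106 CPM, and Atad2, which encodes a chromatin ATPase with a bromodomain, at 60.8, 63.7, 120 and 114, 46.9, 59.0 CPM. For both, young 3 was highest and old 2 lowest. Their log2 fold changes were -0.54 (SE 0.45) and -0.30 (SE 0.38), both within the spread between populations. The value of Atad2 lay between -0.70 and 0.069 when a population was left out. That of Nasp was -1.06 without young 1 or without old 1, -0.18 without young 3 and -0.19 without old 2.

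Of the 6 repair genes, 1 was above and 5 below 0, with a median of -0.12. Usp1, which encodes the deubiquitinase of Pcna, was at 43.5, 50.04, 85.5 and 79.6, 38.9, 49.1 CPM, again highest in young 3 and old 1. Rad51ap1, whose product aids homologous recombination, was at 21.4, 38.7, 46.0 and 37.6, 16.0, 45.6 CPM. Old 3 reached young 3 for this gene.

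Of the 3 regulators, 1 was above and 2 below 0. E2f8, which encodes a repressor of E2F targets, was at 18.0, 34.0, 25.5 and 36.7, 19.5, 21.4 CPM. It was among the members least tied to the replication-positive cells. Dtl, the substrate receptor gene of a ubiquitin ligase that acts on chromatin-bound Pcna, was at 8.56, 15.6, 33.5 and 22.5, 8.19, 15.7 CPM, with young 3 and old 1 again on top.

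Of the 240 values of a member in a population, 4 lay 1 or more on the log2 scale, that is 2-fold or more, from the level the share gave. All 4 lay below it, 2 in young 1 and 2 in old 2. The computed level takes in the population itself, so a high value raises it and the limit is harder to reach from above. The largest departure was Ung in young 1. Ung (ENSMUSG00000029591; chromosome 5, 114130386 to 114139323) encodes the glycosylase that removes uracil from DNA, and its kept-cell counts were 249, 1388, 1949 and 1059, 1342, 1326. Its level was 1.86, 7.18 and 10.3 CPM in young and 6.996, 7.56 and 7.26 CPM in old populations. Young 1 stood apart and the other 5 lay close together. At equal depth young 1 had 1.54 CPM against 5.50 CPM computed from its share, a log2 ratio of -1.84 that rests on 65 UMIs. The other 5 populations ranged from -0.03 to 0.49.

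Ung was low in both kinds of cell of young 1. The replication-positive cells held 2.80 CPM, against 8.82 to 14.8 CPM in those of the other populations, while the remaining cells held 1.49 CPM against 2.61 to 5.49 CPM. A UMI of Ung was found in 0.955% of the replication-positive cells of young 1 (95% Wilson interval 0.631% to 1.44%) and in 4.75% to 6.85% of those of the other populations. In the 259 myocyte cells of young 1 the share was 1.16% (interval 0.395% to 3.35%), too few cells to set a background level. The median over the genes of chromosome 5 was shifted by -0.04 on the log2 scale in young 1. Smaller stretches of the chromosome were not looked at, and their part in the Ung level was not tested. With young 1 in the fit, the log2 fold change of Ung was 0.38 (SE 0.45), and on the 4 populations of the longer gene list it was -0.17.

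Cdc45 (ENSMUSG00000000028; chromosome 16, 18780447 to 18811987), which joins the MCM ring in the active helicase, departed in young 1 and came near the limit in young 2. It was at 11.5, 50.4 and 31.4 CPM in young and 24.9, 25.4 and 29.8 CPM in old populations. The old populations were tight and the young ones spread 4.37-fold around them. In young 1 the log2 ratio to the computed level was -1.04, and in young 2 it was 0.80. The remaining cells of young 2 held 40.2 CPM, against 6.79 to 18.6 CPM in those of the other populations. In thinned cells the ratio of both kinds of cell in young 2 was 1.54, the lowest for this gene. A Cdc45 UMI was found in 17.4% of the remaining cells of young 2 and in 16.9% of its myocyte cells, of which 13.5% were replication-positive. The part of free RNA in this level was not tested.

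Ccne2 and Cdca7 departed in old 2 and lay on the other side in old 1. Ccne2 (ENSMUSG00000028212; chromosome 4, 11191351 to 11204779) encodes cyclin E2. Its level was 17.7, 27.2 and 27.5 CPM in young and 67.3, 10.7 and 32.1 CPM in old populations, so the old group held both extremes. The log2 ratio to the computed level was -1.03 in old 2 and 0.90 in old 1. In replication-positive cells the levels were 44.7, 47.8, 33.6 and 97.7, 34.8, 56.6 CPM, and old 1 remained the highest. Cdca7 (ENSMUSG00000055612; chromosome 2, 72476159 to 72486893), whose product recruits the remodeler encoded by Hells, was at 11.3, 13.8, 16.5 and 24.8, 5.42, 6.77 CPM. Its log2 ratios were 0.80 in old 1, -1.01 in old 2 and -0.94 in old 3, the last just inside the limit. In replication-positive cells Cdca7 was at 17.8, 18.9, 17.9 and 28.4, 10.5, 9.70 CPM, even among the young and spread among the old. Hells itself lay in old 2 at -0.77.

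Other values just inside the limit were those of the chromatin assembly gene Chaf1b, at -0.82 in young 2 and -0.77 in old 3. The departures depended little on where the replication-positive cells were cut. At 5 UMIs, 3 values departed, since Cdca7 in old 2 no longer did, and at 15 UMIs there were 5, with Ccne2 in old 1 added at 1.00.

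**Figure D5:**
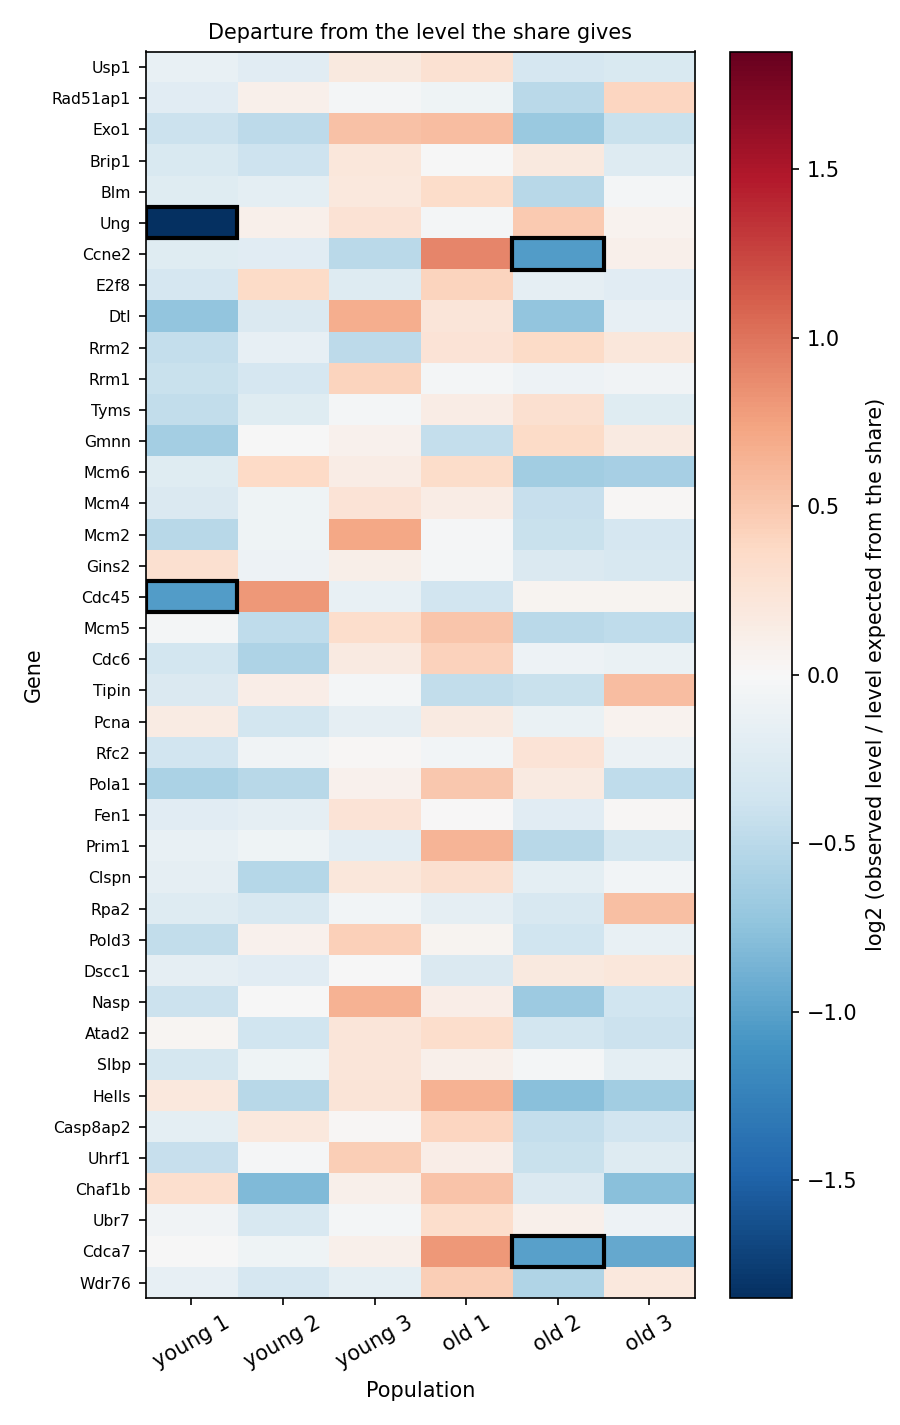
Log2 ratio of the observed level to the level computed from the replication-positive share, for each member (vertical axis) in each population (horizontal axis); red is above and blue below, and black frames mark the 4 values of 1 or more in size. Ung in young 1 is the darkest cell at -1.84, and old 1 and old 2 differ in sign for most members.

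Some chromosomes as a whole stood high in a single population, and several members on them stood high too. Old 2 had a median shift of 0.32 for chromosome 11 (Cdc6, Brip1), 0.33 for chromosome 13 (Gmnn), 0.26 for chromosome 5 (Tyms, Ung, Rfc2, Slbp) and 0.78 for the X chromosome (Pola1), on the log2 scale. In old 2, 6 of these 8 members lay above the level computed from the share, with a median log2 ratio of 0.22, and 4 of the other 32, with a median of -0.41. Young 3 had a shift of 0.41 for chromosome 6, where Mcm2 and Rad51ap1 lie, with log2 ratios of 0.71 and -0.04. These chromosomes were singled out after the values were seen, and their part in the levels of the members was not tested.

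For 6 members a protein-coding gene overlaps on the opposite strand in the GENCODE M21 annotation, namely Fen1, Gins2, Rfc2, Ccne2, Ubr7 and Cdc45. How the counting treated strand is not given in the sources used here, and a mixing of reads between such pairs was not tested. Ints8, which overlaps the end of Ccne2, was at 22.3, 37.7, 35.5 and 29.4, 27.5, 29.4 CPM. Among the young populations both genes were lowest in young 1. Among the old ones Ints8 was nearly even, whereas Ccne2 had both its extremes there. Totals per gene cannot show whether reads were mixed, and the other pairs were not compared in this way.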

How the data were processed

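The deposited matrices hold raw UMI counts per gene and barcode, whole numbers with no normalization by the authors. Counting used Cell Ranger 7.0.0 for young 1 and old 1 (21849 features) and 7.2.0 for the other 4 (32285 features), per the file headers. The submitters' processing notes name Cell Ranger 7.2.0, Seurat 5.134 and mm10. The annotation release and the treatment of intronic reads are not given in the sources used here.

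The 21485 shared identifiers held 98.5% to 99.9% of the UMIs. A barcode was kept as a cell from 1000 UMIs and 500 genes, with under 15% mitochondrial UMIs. Scrublet (scanpy 1.11.5) marked 445 cells in young 2, 1000 in old 3 and at most 1 elsewhere, and was judged unreliable, so doublets were not removed except in an alternative (highest scores at 0.8% per 1000 cells). CPM of all kept cells, and of single members in each kind of cell, came from the deposited counts over the shared genes. They were not scaled further. Thinned cells gave the summed levels of the members in replication-positive, remaining and myocyte cells, the ratios of both kinds of cell, the computed levels and values at equal depth. They also gave the median span of the members in replication-positive cells and the count above 2-fold. Counts summed per population went into edgeR 4.0.16 (R 4.3.3) with TMM factors, filterByExpr and the robust quasi-likelihood test, which is two-sided, and a model of gene list and group. The test was checked only on simulated data with less spread between samples than here, so its power at the real spread is not known. It was also run with DESeq2 1.42.0, other scaling, no filter, each population left out, and other class limits. Coordinates are those of GENCODE M21 (GRCm38). P-values judge the difference between the groups against the spread between these populations.

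The members and lists were chosen with earlier results of these data known. Members named with values in every population were those called, those without overlap between groups in all kept cells, those that departed 2-fold from the level the share gave, and the 2 with the highest mean in each role. Other members were named after their values were seen. Of the 37 other replication genes, the 2 with the highest mean were Dut (184, 564, 595 and 247, 219, 517 CPM) and Pclaf (217, 309, 513 and 272, 143, 343 CPM). They supplied 10.7% to 27.4% and 10.9% to 16.8% of the UMIs that sorted the cells.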

Additional observations from a re-analysis of the deposited data

How the results depend on the processing

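No member was called under any alternative. Rrm2 kept its direction in all of them, but it was named because its old values all lay above its young ones. Leaving out populations could thus hardly turn it. The populations are few, and levels of low members such as Ung rest on few UMIs. Genes called in all kept cells, replication-positive cells and the remaining cells numbered 1, 1 and 1 in the reported fit. DESeq2 called 219, 177 and 168, the fit without the gene list term 0, 0 and 0, and the 4 populations of the longer list alone 0, 0 and 0. Without a filter on low counts the remaining cells gave 2. Leaving out a population gave 0 to 3, 0 to 5 and 0 to 4 calls, and medians of the members of -0.49 to 0.12, -0.040 to 0.022 and -0.52 to 0.13. It moved the difference in share from -15.1 to 6.70 points and that in summed level from -356 to 305 CPM. Both turned positive without young 3 or without old 2. On the longer list alone they were -22.7 points and -614 CPM. In the edgeR fits, leaving out young 1 or old 1 left the other alone on its gene list. Those fits and that of the longer list alone thus give the same estimate and are not separate alternatives. The share differed by -6.48 points at a limit of 5 UMIs and by -3.36 at 15. Alternatives added after seeing the data gave -4.06 points without myocyte cells and -1.13 when Dut and Pclaf were left out of the sorting and the limit was lowered to 5 UMIs, both at once. Among the log2 fold changes in all kept cells, the longer list alone turned Ung to -0.17, Ccne2 to -0.25, Gmnn to -0.17 and Pcna to -0.028. Gmnn, at 0.0045 in the reported fit, was -0.0017 with RLE size factors, -0.0018 with DESeq2, -0.049 without the gene list term, -0.00045 without high doublet scores and -0.0030 with the replicate block, under which Pcna was -0.011. Leaving out a population gave ranges of -0.17 to 0.65 for Ung, -0.25 to 0.88 for Ccne2, -0.51 to 0.26 for Cdc45, -0.17 to 0.19 for Gmnn, -0.64 to 0.23 for Tipin, -0.21 to 0.22 for Pcna, -0.35 to 0.20 for Rrm1, -0.53 to 0.10 for Usp1, -0.59 to 0.32 for Rad51ap1, -0.70 to 0.069 for Atad2, -1.24 to -0.24 for Cdca7, -1.02 to -0.19 for Mcm6, -1.06 to -0.18 for Nasp and -0.48 to 0.15 for E2f8. Where a value turned, the cause was not tested. The replicate numbers were not taken to pair the populations, because the deviations of same-numbered populations correlated at 0.39, 0.28 and -0.12 across genes. The replicate block called 1, 1 and 1 genes and 0 members.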
